A study of Mus musculus with 48 samples.

Results

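*Tfap2a*, *Tfap2b*, *Dmbx1*, *St18*, *Lamp5*, *Vstm2l* and *Lgals7* are 7 of the 16510 genes counted in single cells of the embryonic mouse hypothalamus at E18.5. They were chosen because they were leading genes of neurons that were nearly absent from control and common in *Eed-cKO* embryos, so their rise between genotypes and their presence in the same neurons are part of how they were picked. These values are therefore given as a description without a test. Control embryos were *Eed fl/fl*, and *Eed-cKO* embryos were *Eed fl/fl; Sox1-Cre*, so both carried the floxed allele and only the mutants carried *Cre*. *Eed* encodes a subunit of polycomb repressor complex 2 (PRC2), which places the repressive H3K27me3 mark on histones. The *Cre* gene is inserted in the *Sox1* locus and acts across the early central nervous system. The study left out non-neural cells such as vascular cells and microglia, which it took not to be targets of *Cre*. The 6 control embryos (2 females, 4 males) gave 22 libraries, and the 9 *Eed-cKO* embryos (5 females, 4 males) gave 26 libraries. Each dissected hypothalamus had been split into pieces before dissociation, but the sources used here do not say whether a library stands for a piece. The embryo was taken as the replicate.

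The AP-2 proteins encoded by *Tfap2a* and *Tfap2b* are DNA-binding factors of neural crest and skin, and in the central nervous system they are known from inhibitory neurons of the cerebellum and the dorsal spinal cord. *Dmbx1* encodes a paired-type homeodomain factor of the developing midbrain and hindbrain, related to the Otx factors, and *St18* encodes a zinc-finger factor of the Myt1 family. The other members encode no DNA-binding factor. *Lamp5* encodes a neuronal relative of the lysosome-associated membrane proteins, *Vstm2l* a protein with an immunoglobulin-like domain, and *Lgals7* the lectin galectin-7, which is best known from stratified epithelia. Hox genes, with which the members are compared here, give position along the body axis and are normally silent in the forebrain, where PRC2 helps to keep them off.

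On the GRCm38 (mm10) build with GENCODE annotation, the members lie on 5 chromosomes as protein-coding genes. *Tfap2b* spans chr1:19208914-19238576 on the plus strand and *St18* chr1:6487231-6860940 on the plus strand. *Lamp5* spans chr2:136052239-136069917 and *Vstm2l* chr2:157914653-157944719, both on the plus strand. *Dmbx1* spans chr4:115915119-115939926 on the minus strand, *Lgals7* chr7:28863853-28866284 on the plus strand and *Tfap2a* chr13:40715302-40738376 on the minus strand. *Tfap2a* overlaps 3 antisense genes and *Lgals7* overlaps 1, and whether the counting used strand is not given in the sources used here. The only one of these 4 in the count table was *Gm26688*, with 13 counts in *Eed-cKO* neurons against 487 of *Tfap2a*, and 10 of its 13 neurons also held *Tfap2a*.

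The RefSeq promoter table (GRCm38.p6) held windows for 5 of the 7 members, each window running from 250 bases before a listed start to 50 bases after it. The 3 windows below belong to *Tfap2b*, the gene by which neurons are sorted in the comparisons that follow, to *Dmbx1*, which had the largest ratio between genotypes, and to *Lamp5*, which had the highest odds ratio of detection together with *Tfap2b*. They are shown 5′ to 3′ on the strand of the gene, and capitals mark CpG dinucleotides. The positions are chr1:19211804-19212103 (plus strand) for *Tfap2b*, chr4:115939877-115940176 (minus strand) for *Dmbx1* and chr2:136052089-136052388 (plus strand) for the upstream start of *Lamp5*.
Tfap2b: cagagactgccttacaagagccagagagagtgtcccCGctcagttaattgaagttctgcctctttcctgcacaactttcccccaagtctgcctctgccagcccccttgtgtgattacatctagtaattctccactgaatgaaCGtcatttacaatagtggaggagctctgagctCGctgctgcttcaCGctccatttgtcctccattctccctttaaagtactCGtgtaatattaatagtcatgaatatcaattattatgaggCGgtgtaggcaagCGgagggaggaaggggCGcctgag
Dmbx1: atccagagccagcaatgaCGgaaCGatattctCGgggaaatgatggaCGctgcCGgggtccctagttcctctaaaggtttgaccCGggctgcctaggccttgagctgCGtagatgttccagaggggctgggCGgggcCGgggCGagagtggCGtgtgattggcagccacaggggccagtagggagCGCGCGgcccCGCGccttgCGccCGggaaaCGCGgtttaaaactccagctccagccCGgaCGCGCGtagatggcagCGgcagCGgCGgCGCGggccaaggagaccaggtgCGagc
Lamp5: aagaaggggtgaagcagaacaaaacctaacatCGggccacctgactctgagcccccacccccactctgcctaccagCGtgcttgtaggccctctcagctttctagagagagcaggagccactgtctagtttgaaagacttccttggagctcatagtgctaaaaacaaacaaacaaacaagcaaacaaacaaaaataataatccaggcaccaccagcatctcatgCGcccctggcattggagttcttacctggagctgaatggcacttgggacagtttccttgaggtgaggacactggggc
The *Dmbx1* window held 30 CpGs, a number that only 11.7% of 32851 promoter windows reached, while the *Tfap2b* window held 8 CpGs, close to the median of 7. The *Tfap2b* window lies inside the gene, downstream of its GENCODE start at chr1:19208914. Its CpG number is therefore not that of the sequence around the GENCODE start. The *Lamp5* window held 3 CpGs, and 76.7% of windows held as many or more. The AP-2 motif GCCNNNGGC, which reads the same on both strands, occurred in 16.6% of all promoter windows and in 1 of the 7 windows of members, as GCCCCTGGC in the *Lamp5* window printed above. *St18* and *Vstm2l* had no entry.

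Each value in the count table is a number of UMIs, the random tags that mark single mRNA molecules near their 3′ end. The 14121 cells were clustered into 26 clusters, and 13 of them were named neuron-like because at least 3 of 8 neuronal markers were raised in them. This gave 5215 control neurons (663 to 1076 per embryo, median 5547 UMIs per cell) and 4645 *Eed-cKO* neurons (142 to 847 per embryo, median 4832 UMIs). Neurons of a control embryo held 4094751 to 6666271 UMIs in sum, and those of an *Eed-cKO* embryo 486438 to 4437682. *Eed* itself fell in *Eed-cKO* neurons from 30.8 ± 1.82 to 23.2 ± 2.88 CPM (log2 change -0.41, SE 0.09, adjusted p = 0.00314, edgeR's quasi-likelihood test), which is a weak check of the genotype, since 3′ tags may lie outside the deleted part. In the sums of this and the other genes, fewer cells with a gene and less RNA per cell cannot be told apart. The leading number in the library names never joined both genotypes, so genotype and litter, if that is what the number marks, cannot be told apart. An unnamed cluster of 226 *Eed-cKO* cells and 0 control cells, led by the erythroid gene *Alas2* and holding pituitary markers, had neuronal markers as well and is left out of the neurons here. In its cells *Tfap2b* was found in 26.1%, *Lamp5* in 29.2% and *Vstm2l* in 85.4%, and with them counted as neurons the share of *Tfap2b* neurons in *Eed-cKO* was 12.2% in place of 11.7%.

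**Figure D1:**
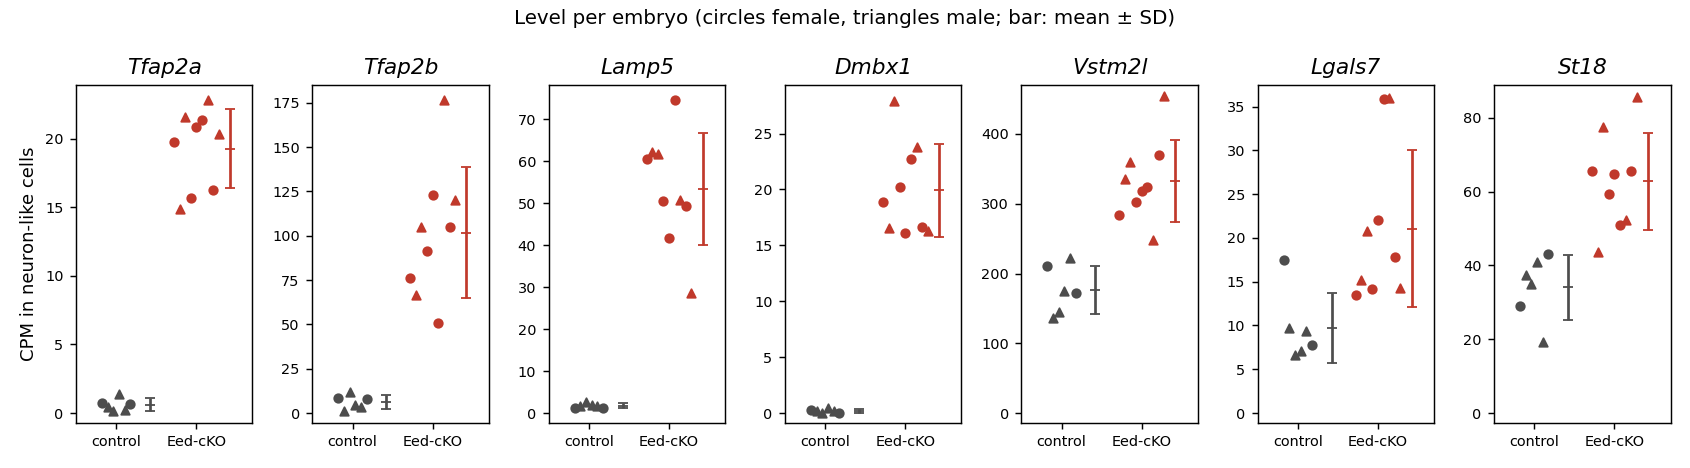
Level of each member in neuron-like cells (y axis, CPM of the summed UMIs), 1 point per embryo (6 control, 9 *Eed-cKO*; circles female, triangles male), with the mean and SD as a bar; each panel has its own scale. In 6 of the 7 panels the lowest *Eed-cKO* embryo lies above the highest control embryo, and in the *Lgals7* panel the groups overlap.

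Levels per embryo are given as CPM, the UMIs of a gene scaled to a fixed total of 1e6 neuronal UMIs with TMM factors. Of the AP-2 genes, *Tfap2a* lay between 0.151 and 1.42 CPM in control (median 0.552, 20 UMIs in all) and between 14.9 and 22.8 CPM in *Eed-cKO* (median 20.4, 487 UMIs). The mutant embryos were close to each other (19.3 ± 2.91, SD, n = 9) and the ratio of the group means was 32.1. *Tfap2b* lay between 1.03 and 11.8 CPM in control (median 6.34) and between 51 and 176 CPM in *Eed-cKO* (median 105). It was therefore the most spread of the strongly raised members, with 102 ± 37.0 CPM in *Eed-cKO* and a ratio of means of 16.5. Its lowest and highest mutant embryos, 6 and 7, carried the same leading number in their library names.

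*Dmbx1*, the homeodomain member, was the rarest in control, with 6 UMIs in all and 2 embryos at 0. Its control levels ran from 0 to 0.474 CPM (median 0.197), and its *Eed-cKO* levels from 16.1 to 27.9 CPM (median 18.9). The ratio of means, 107, rests on those 6 control UMIs. *Lamp5* ran from 1.21 to 2.72 CPM in control (median 1.67) and from 28.5 to 74.5 CPM in *Eed-cKO* (median 50.7), a ratio of means of 30.8. For these 4 genes, the lowest mutant embryo was 4.33 to 34.0 times the highest control embryo, so the groups lay far apart.

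The remaining members did not match the description of near absence from control. *Vstm2l* was found in 48.9% of control neurons and ran from 136 to 223 CPM there (median 173), against 249 to 454 CPM in *Eed-cKO* (median 325, ratio of means 1.88). *St18* ran from 19.3 to 43.0 CPM in control (median 36.1) and from 43.5 to 85.6 in *Eed-cKO* (median 64.6, ratio of means 1.84). For *St18* the groups only just parted, since the lowest mutant embryo was 1.01 times the highest control embryo. *Lgals7* ran from 6.64 to 17.5 CPM in control (median 8.58) and from 13.5 to 36.0 in *Eed-cKO* (median 17.8), and here the groups overlapped. Its highest mutant values, 35.8 and 36.0 CPM, were those of embryos 6 and 7, and without this pair the mean was 16.8 ± 3.45 CPM and the ratio of means 1.74 in place of 2.17. In all, 6 of the 7 members had every *Eed-cKO* embryo above every control embryo, beside 2.03% of all 11928 genes tested, a count that the choice of members fixes in part.

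Between the sexes, which the choice of members had not used, no difference was found within *Eed-cKO*. *Tfap2b* had 89.3 ± 27.5 CPM in 5 females and 117 ± 45.6 CPM in 4 males (exact two-sided permutation test, p = 0.310, adjusted p = 0.833 over the 7 members). The raw p-values of the other members ran from 0.444 to 0.833 in the same exact permutation test, whose smallest possible p was 0.00794, and 0 of 7 passed an unadjusted p of 0.05.

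*Tfap2b* differed between genotypes in how many neurons held it and in how much each of them held. A cell with at least 1 UMI of a gene is called positive. In *Eed-cKO*, 523 of 4645 neurons were positive (11.7 ± 4.94% per embryo, from 8.11 to 23.7%), with a median of 3 UMIs per positive neuron and 77 neurons at 10 or more. In control, 10 of 5215 were positive (0.197 ± 0.0743% per embryo, 1 or more in each of the 6 embryos), with a median of 17 UMIs, and 6 of the 10 held 10 or more. At full depth these few control neurons thus carried more *Tfap2b* apiece than most mutant ones. They held 1840 to 22166 UMIs of all genes, beside a median of 5157 in the mutant positive neurons. When each neuron was cut down at random to 2000 UMIs (262 control and 342 *Eed-cKO* neurons lay below that depth and were dropped), the shares were 0.186% and 8.77%. Positive neurons then held a mean of 4.67 *Tfap2b* UMIs in control and 2.64 in *Eed-cKO*, in place of 21 and 4.91.

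**Figure D2:**
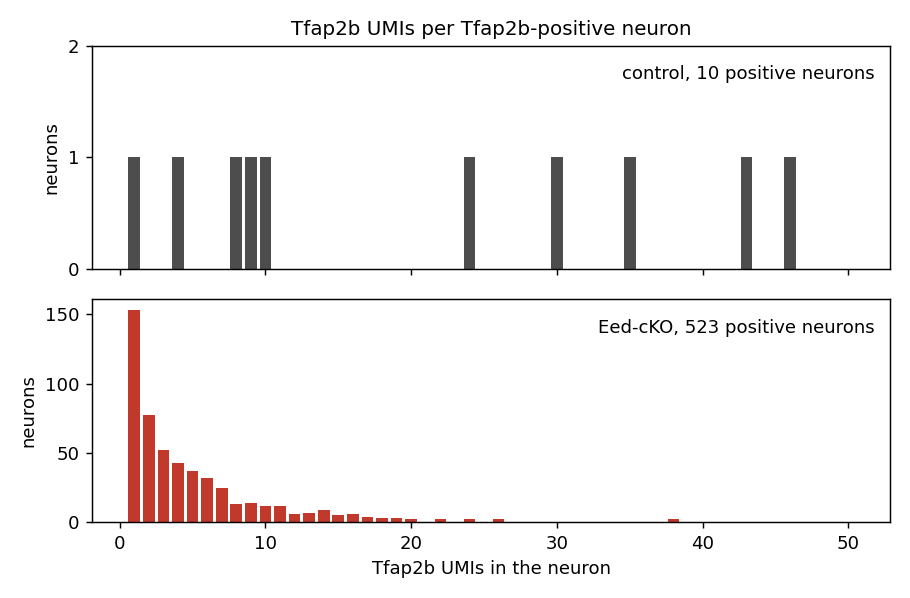
Number of neurons (y axis) by the number of *Tfap2b* UMIs they held (x axis), positive neurons only, for control (upper panel, 10 neurons) and *Eed-cKO* (lower panel, 523 neurons); the y axes differ. The mutant neurons pile up at 1 to 3 UMIs, whereas 6 of the 10 control neurons lie at 10 or more.

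The control *Tfap2b* neurons were of 1 main kind. Of the 10, 8 lay in a cluster led by *Trh* and *Zic4*, with 4 to 46 *Tfap2b* UMIs each. In that cluster 7 of the 8 held *Zic4*, a zinc-finger factor, while 0 of the 10 held *Trh*, the gene of thyrotropin-releasing hormone. *Slc17a6*, the vesicular glutamate transporter VGLUT2, was found in 9 and *Slc32a1*, the vesicular GABA transporter, in 3. *Tfap2a* was found in 2, and none of the 10 had a UMI of *Lamp5*, *Dmbx1*, *St18*, *Gata3*, *Tal1* or any Hox gene. In the *Trh* and *Zic4* cluster the *Tfap2b* level was 122 CPM over 234 control neurons and 46.0 CPM over 197 *Eed-cKO* neurons. The summed level was thus not raised there in the mutant. The share of positive neurons in this cluster was 3.42% in control (8 neurons) and 5.58% in *Eed-cKO* (11 neurons).

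In *Eed-cKO* the positive neurons lay elsewhere. A cluster led by *Hoxc10*, *Hoxc13*, *Tfap2b* and *Lamp5* held 1560 *Eed-cKO* and 17 control cells, which is 35.3 ± 6.15% of the neurons of a mutant embryo. It held 87.2% of the *Eed-cKO* neurons positive for *Tfap2b*, 89.3% for *Lamp5*, 86.3% for *Dmbx1* and 81.8% for *Tfap2a*. It held only 58.7% for *Lgals7*, 53.7% for *St18* and 49.0% for *Vstm2l*, beside 33.6% of all *Eed-cKO* neurons. Since the cells were clustered on these genes among others, the concentration is a description. Within the cluster *Tfap2b* was found in 29.2% of mutant neurons, *Lamp5* in 36.3%, *Tfap2a* in 15.8%, *Dmbx1* in 10.9% and *Vstm2l* in 84.8%. *Tfap2b*, *Lamp5*, *Tfap2a* and *Dmbx1*, each taken singly, were thus missed in most cells of the cluster.

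Outside it, some members were frequent in other clusters. *St18* was most frequent in a cluster led by *Lhx6* and *Dlx1as*, at 48.8% of 346 control and 56.7% of 231 *Eed-cKO* neurons. *Lhx6* and the Dlx genes mark forebrain GABAergic neurons. *Tfap2a* (9.14%) and *Dmbx1* (5.08%) were next most frequent in the *Trh* and *Zic4* cluster of *Eed-cKO*, against 0.855% and 0 in the control cells of that cluster, where 0 of 234 allows up to 1.28%. *Tfap2b* was next found in 19.2% of the 26 *Eed-cKO* neurons of the *Gbx2* and *Tcf7l2* cluster (5 neurons, all of 1 embryo) and in 6.80% of the 147 of the *Avp* and *Gal* cluster.

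**Figure D3:**
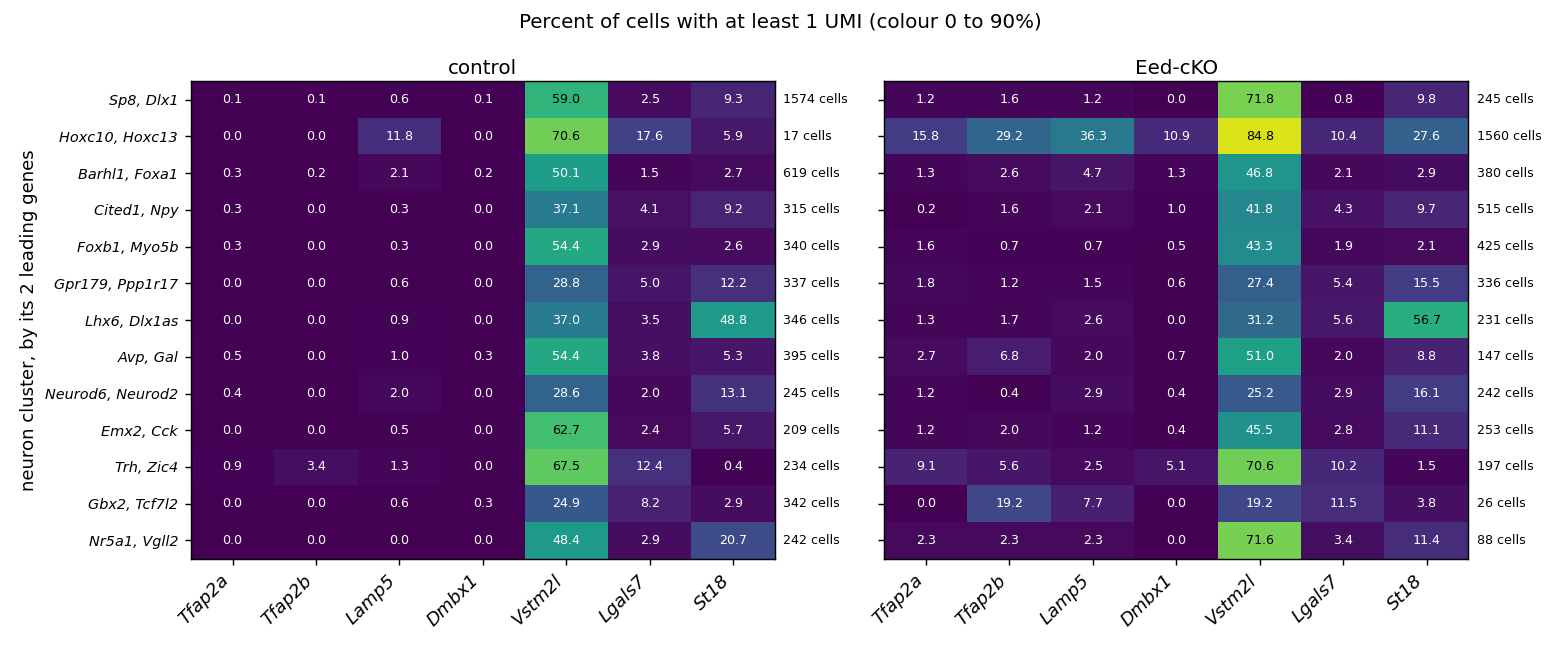
Percent of cells with at least 1 UMI of each member (columns, number and colour) in the 13 neuron-like clusters (rows, named by their 2 leading genes), control on the left and *Eed-cKO* on the right, with the number of cells beside each row. *Tfap2a*, *Tfap2b*, *Lamp5* and *Dmbx1* stand out in the *Hoxc10* row of *Eed-cKO*, whereas *Vstm2l* is found in every row of both genotypes and *St18* peaks in the *Lhx6* row of both.

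The shares in non-neural cells were taken as the level of free RNA. Endothelial-, pericyte-, microglia- and leptomeningeal-like cells were assumed to lack *Cre* activity, which was not tested here. Leptomeningeal cells, some of which descend from the neural crest, held *Tfap2b* in both genotypes (3.37% of 89 control and 6.72% of 268 *Eed-cKO* cells). In the other non-neural cells of *Eed-cKO* (213 cells, median 3089 UMIs), *Tfap2b* was found in 2.82%, *Lamp5* in 2.35%, *Dmbx1* in 1.41% and *Tfap2a* in 0.939%. In the same cells *Vstm2l* was found in 7.98%, *St18* in 3.76% and *Lgals7* in 0%, which allows up to 1.41%. All 7 shares were higher in *Eed-cKO* neurons, whose median depth was 4832 UMIs. In control non-neural cells (258 cells) 0 held *Tfap2a*, *Tfap2b* or *Dmbx1*, which allows up to 1.16%. Intervals and limits of this kind cover counting error only. For *Tfap2a*, *Tfap2b*, *Lamp5* and *Dmbx1*, shares of 1 to 3% outside the *Hoxc10* cluster are thus near this background. Their 95% intervals in the 213 *Eed-cKO* non-neural cells reached 3.35, 6.03, 5.39 and 4.06%. *Vstm2l*, *St18* and *Lgals7* had other backgrounds and are not covered by this range. In the 533 *Eed-cKO* astrocyte-like cells *Lamp5* (1.5%) and *Tfap2b* (3.57%) were near background too, while *Tfap2a* there was at 4.32%. *Tfap2b* was found in 6.63% of 166 *Eed-cKO* cycling progenitor-like cells (11 cells, median 4833 UMIs) and in 0 of 132 control ones.

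Neurons with several members were rare in control. At least 3 of the 7 were found in 12.4 ± 3.62% of *Eed-cKO* neurons (586 cells) and in 0.369 ± 0.0908% of control neurons (19 cells). At 2000 UMIs per neuron these shares were 5.06% and 0.0460%. Counting only *Tfap2a*, *Tfap2b*, *Lamp5* and *Dmbx1*, 408 *Eed-cKO* and 3 control neurons held at least 2 of them, and 6 *Eed-cKO* neurons held all 4. No neuron held all 7.

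The members paired unequally within *Eed-cKO* neurons. As a measure of co-detection, the odds ratio of finding a gene in neurons with another gene was pooled over the 9 embryos by the Mantel-Haenszel method, and a value of 1 means no association. *Tfap2a* and *Dmbx1* were found together in 76 neurons, with the highest odds ratio of the 21 pairs (11.4, above 1 in 9 of 9 embryos). *Tfap2b* and *Lamp5* followed with 231 neurons (7.14, 9 of 9). The AP-2 genes themselves, found together in 95 neurons (4.10, 9 of 9), came after *Dmbx1* with *Vstm2l* (4.85) and *Lamp5* with *Vstm2l* (4.38). After thinning to 2000 UMIs, the ratios were 6.22 for *Tfap2a* and *Dmbx1*, 5.33 for *Tfap2b* and *Lamp5* and 3.53 for the AP-2 pair. At that depth the AP-2 pair came before *Lamp5* with *Vstm2l* (3.02) and *Dmbx1* with *Vstm2l* (2.41), so that order depended on depth. The median depth was 6349 UMIs in neurons with *Dmbx1* and 4754 UMIs in those without. Since most positive neurons share a cluster, such values include the split between that cluster and the rest.

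Within the *Hoxc10* cluster, which removes that split, the ratios were smaller and some turned. *Tfap2b*, *Lamp5* and *Dmbx1* are among the leading genes of this cluster, and the cells were clustered on these genes among others. That choice can itself lower the ratios within the cluster, and its part was not tested. *Tfap2a* and *Dmbx1* had an odds ratio of 4.41 (2.63 after thinning), *Tfap2b* and *Lamp5* one of 2.31 (1.74), and *Tfap2a* and *Tfap2b* one of 1.49 (1.31). *Tfap2b* and *Dmbx1* had 1.93 over all neurons but 0.646 within the cluster, and after thinning to 2000 UMIs 0.954 and 0.344. Only 9 neurons held both genes after thinning, and over all neurons the single embryos then ran from 0.200 to 3.32, with 7 of 9 above 1. *Dmbx1* and *St18* were found together least often, with an odds ratio of 0.481 over all neurons (above 1 in 1 of 9 embryos) and 0.203 within the cluster. The higher ratios of *St18* were those with *Lamp5* (2.38 over all neurons, 1.34 within the cluster), *Lgals7* (2.31 and 1.87) and *Tfap2b* (2.27 and 1.43). By the values over all neurons, the pairs thus differed in strength, and *Dmbx1* was found with *Tfap2a* more often than with *Tfap2b* or *St18*. The share of neurons with a high doublet score was 9.14% among *Dmbx1* neurons and 7.95% among *Tfap2a* neurons, against 6.57% and 6.59% among the neurons without each gene, and its part in these pairings was not tested.

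**Figure D4:**
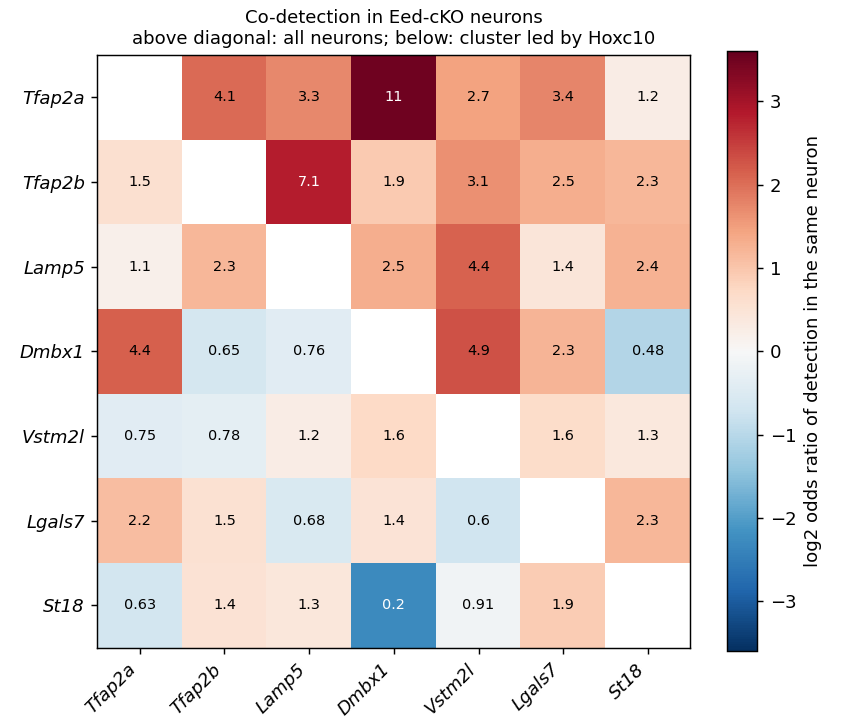
Mantel-Haenszel odds ratio of co-detection for each pair of members in *Eed-cKO* neurons (numbers; colour on a log2 scale, red above 1 and blue below), over all neurons above the diagonal and within the cluster led by *Hoxc10* below it. *Tfap2a* with *Dmbx1* is the darkest red on both sides, and *Dmbx1* with *St18* is blue on both.

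Hox transcripts were widespread in *Eed-cKO* neurons and most frequent in those with the members. At least 1 UMI of the 34 Hox genes in the table was found in 46.1 ± 8.28% of *Eed-cKO* and 0.0889 ± 0.105% of control neurons. Among *Eed-cKO* neurons the share was 91.5 ± 4.96% with *Tfap2b* and 40.2 ± 7.59% without, a difference of 51.3 ± 5.93 percentage points (SD over embryos) that was positive in 9 of 9 embryos. The depths were alike, with 4866 and 4813 UMIs (means of the embryos' medians), and at 2000 UMIs per neuron the shares were 85.9% and 33.6%. The Hox level was 13.4 ± 2.01 UMIs per 10000 with *Tfap2b* and 4.16 ± 0.857 without. Most of this was shared by the whole *Hoxc10* cluster, where at 2000 UMIs 90.3% of neurons with *Tfap2b* and 84.5% of those without held a Hox UMI, a difference of 5.84 ± 5.46 points.

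All parts of the Hox series took part. Hox genes are numbered in paralog groups that run from anterior (group 1) to posterior (group 13) along the body. With and without *Tfap2b*, a UMI of groups 1 to 4 was found in 53.6% and 18.6% of neurons, of groups 5 to 9 in 75.0% and 29.5%, and of groups 10 to 13 in 85.6% and 31.1%. Among single genes at equal depth, the largest differences were those of *Hoxc13* (32.0 ± 12.5% against 7.72 ± 1.75%) and *Hoxc10* (32.3 ± 13.9% against 11.1 ± 2.26%), each higher with *Tfap2b* in 9 of 9 embryos. *Hoxd13* showed no such difference, with 0.897% and 0.833%.

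The members low in control were the ones found most often with Hox transcripts. In the embryos with at least 10 positive neurons, a Hox UMI was found in 93.8 ± 4.21% of neurons with *Dmbx1*, 91.6 ± 3.45% with *Lamp5* and 88.8 ± 6.19% with *Tfap2a*, each in 8 embryos. The share was 71.3 ± 7.36% with *Lgals7*, 68.5 ± 9.14% with *St18* and 59.3 ± 7.31% with *Vstm2l*. Each of the 7 shares was above that of the neurons without the gene in every embryo used. Of the 1439 *Eed-cKO* neurons without any member, 14.7% held a Hox UMI. Depth differed between these sets, with medians of 6349 UMIs with *Dmbx1*, 4475 with *St18* and 4082 without any member. So did the share in the *Hoxc10* cluster, at 86.3%, 53.7% and 4.10% in the same order. The part of these differences in the Hox shares was not tested.

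**Figure D5:**
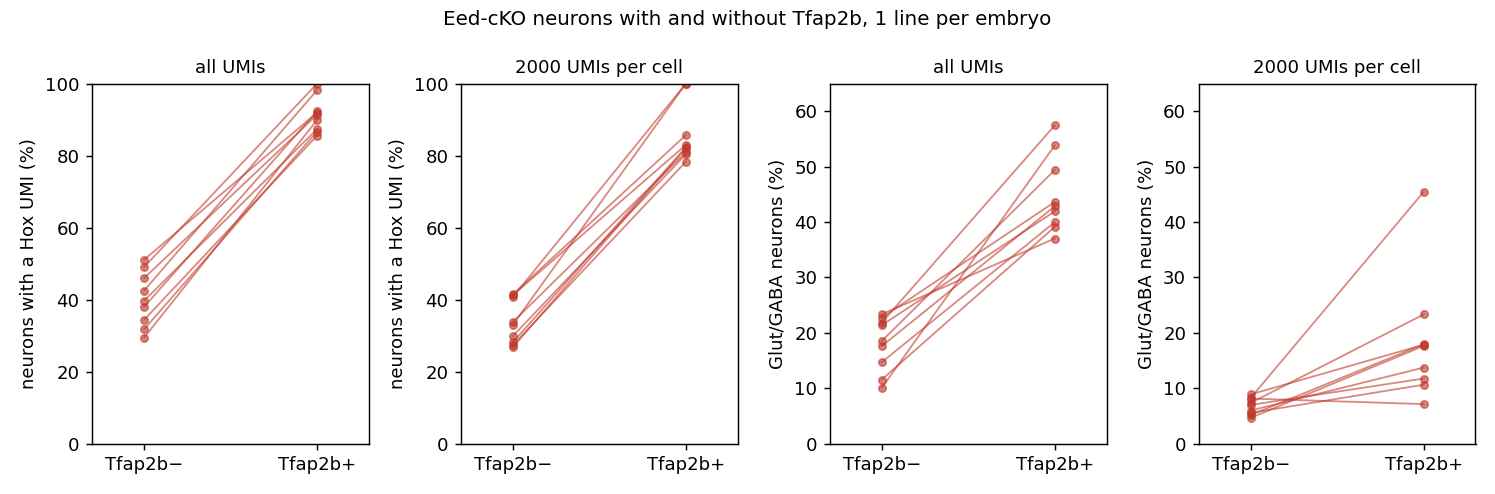
Share of *Eed-cKO* neurons with a Hox UMI (left pair of panels) and of Glut/GABA neurons (right pair), in percent, for neurons without (Tfap2b−) and with (Tfap2b+) *Tfap2b*, with all UMIs and with every neuron thinned to 2000 UMIs; each line is 1 of the 9 embryos. Every line rises in the Hox panels, whereas the rise of the Glut/GABA share is smaller at equal depth, where it holds in 8 of 9 embryos.

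Transmitter class was read from *Slc17a6* and *Slc32a1*. Neurons with only the former are called Glut, with only the latter GABA, with both Glut/GABA and with none neither. Among *Eed-cKO* neurons with *Tfap2b*, 45 ± 7.0% were Glut/GABA, against 18 ± 4.92% without, a difference of 27.0 ± 8.90 points in 9 of 9 embryos. The neurons with *Tfap2b* were less often Glut (30.1 ± 8.27% against 44.3 ± 4.71%) and about as often GABA (11.6 ± 6.70% against 12.3 ± 1.79%). *Slc32a1* was found in 56.6 ± 7.52% of them and in 30.3 ± 5.53% of the others.

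The size of the Glut/GABA difference depended on depth, and it was shared by the cluster. At 2000 UMIs per neuron the shares were 18.4 ± 11.2% and 6.78 ± 1.5%, a difference of 11.6 ± 10.9 points that was positive in 8 of 9 embryos. Within the *Hoxc10* cluster at that depth they were 19.7 ± 11.1% and 16.4 ± 3.23%, and the difference of 3.35 ± 12.0 points was positive in 4 of 9 embryos. In that cluster, therefore, neurons with and without *Tfap2b* could not be told apart by this class within the spread of the embryos. By contrast, 7 of the 10 control *Tfap2b* neurons had *Slc17a6* without *Slc32a1*.

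The members differed in the class where their level was highest. *Tfap2b* reached 210 ± 93.0 CPM in Glut/GABA neurons of *Eed-cKO*. It had 82.0 ± 50.3 CPM in GABA neurons, 65 ± 38.2 in Glut neurons and 93.01 ± 92.55 in those with neither. *Lamp5* (116 ± 43.5 CPM), *Tfap2a* (34.7 ± 7.90), *Dmbx1* (46.4 ± 13.3) and *Vstm2l* (528 ± 91.8) were likewise highest in Glut/GABA neurons. *St18* had 136 ± 62.3 CPM in GABA but 51.6 ± 10.8 in Glut/GABA neurons, and *Lgals7* 34.6 ± 16.6 in GABA and 26.8 ± 16.4 in Glut/GABA neurons. At equal depth, the share of neurons with *Tfap2b* was higher in Glut/GABA than in Glut neurons in 9 of 9 embryos (by 11.7 ± 7.52 points). The share with *Lgals7* was lower in Glut/GABA than in GABA neurons in 9 of 9 (by 4.67 ± 2.82 points). *Lamp5*, *Tfap2a* and *Vstm2l* were then more frequent in Glut/GABA than in GABA neurons in 7 of 9. For *Dmbx1* that difference was -0.608 ± 13.6 points, positive in 6 of 9. *Tfap2a* exceeded its share in Glut neurons by 2.74 ± 3.83 points, in 6 of 9. In control neurons, too, *St18* was higher in GABA (58.4 ± 14.7 CPM) than in Glut neurons (14.3 ± 3.08).

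Markers of other cell types were examined in the neurons with *Tfap2b*, because AP-2 factors and galectin-7 also mark skin and neural crest. Of 9 keratinocyte markers, 8 had a UMI in these neurons and *Krt5* was at 0. Their summed level was 0.248 to 1.24 per 10000 UMIs over the embryos, beside 0.502 to 0.771 in neurons without *Tfap2b*. This level was higher with *Tfap2b* in 6 of 9 embryos. Of 7 neural crest and peripheral markers in the table, 6 had a UMI, at 0.358 to 0.734 beside 0.409 to 0.809, with *Phox2a* at 0. Their level was higher with *Tfap2b* in 4 of 9 embryos. The summed level of 6 pituitary markers was higher with *Tfap2b* in 0 of 9 embryos (0.828 to 1.64 beside 1.35 to 2.90), with *Cga* and *Tshb* at 0. The 8 astrocyte markers, 7 of them detected and *Gfap* at 0, were higher with *Tfap2b* in 9 of 9 embryos (2.53 to 4.10 beside 1.79 to 2.41, and 186 per 10000 in astrocyte-like cells), and their part in the values above was not tested. Tanycyte markers ran from 0.859 to 1.99 beside 1.71 to 2.57, and in the other 7 lists (oligodendrocyte precursor, ependymal, cycling, endothelial, pericyte, leptomeningeal and microglial) no embryo exceeded 0.828 with *Tfap2b*.

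The genes whose levels most resembled *Tfap2b* across *Eed-cKO* neurons were found by the mean of the Pearson correlations computed in each of the 9 embryos, among 12189 genes. All points in an embryo share its libraries and depth, so the values are a description. *Lamp5* came first (r = 0.312). The 10 non-members that followed were *Lmo1* (0.304), *Hoxc10* (0.283), *Hoxc13* (0.272), *Gata3* (0.246), *Hoxd10* (0.219), *Hoxb3* (0.209), *Tal1* (0.203), *Rpp25* (0.202), *Tshz1* (0.197) and *Hoxb13* (0.196). Of these, 5 are Hox genes, and *Lmo1*, *Gata3* and *Tal1* encode nuclear proteins known as partners in transcription complexes. Among members, *Tfap2a* ranked 27, *Vstm2l* 33, *St18* 58 and *Lgals7* 64, but *Dmbx1* ranked 2034 (r = 0.0216).

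Not all of these genes were silent in control. *Hoxc10*, *Hoxc13*, *Hoxd10* and *Hoxb3* had 0 UMIs in control neurons, and *Hoxc10* ran from 54.5 to 112 CPM in *Eed-cKO* (median 76.4). *Lmo1* ran from 18.2 to 27.1 CPM in control and from 54.8 to 99.3 in *Eed-cKO*, and *Tal1* from 2.48 to 10.1 and from 84.3 to 139. *Tshz1* was expressed about alike, at 91.7 ± 18.2 and 108 ± 16 CPM (adjusted p = 0.144, edgeR).

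Genes related to the members by family or pathway were taken from lists and tested with edgeR over all genes. Of the 11928 genes tested, 8.03% were called higher and 7.34% lower in *Eed-cKO* (adjusted p of 0.05), with a median log2 change of 0.003. In parentheses, each log2 change is followed by its SE and its adjusted p. Of 10 paralogs tested, 3 rose, 2 fell and 5 were not called, with a median log2 change of 0.12. *Otx2*, a forebrain and midbrain homeobox gene (1.22, SE 0.25, 0.00151), *Myt1* (0.84, SE 0.10, 5.39e-07) and *Myt1l* (0.23, SE 0.07, 0.0224) rose, while *Vstm2a* (-0.53, SE 0.09, 9.24e-05) and *Vstm2b* (-0.37, SE 0.11, 0.0271) fell. The other AP-2 genes stayed under the filter on low counts, with *Tfap2c* at 0.197 ± 0.350 CPM in control and 2.26 ± 1.16 in *Eed-cKO*, *Tfap2d* at 0.123 and 0.446, and *Tfap2e* at 0.236 and 0.737. Among the AP-2 partners, the co-activator gene *Cited2* fell (-0.48, SE 0.09, 0.000618), and *Kctd1*, *Kctd15*, *Cited1*, *Cited4*, *Wwox* and *Yeats4* were not called.

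The lists of fate determinants had more risers. Of 13 inhibitory determinants of spinal cord, hindbrain, midbrain and cerebellum tested, 6 rose, 2 fell and 5 were not called (median log2 change 0.59). *Pax2* rose from 0.230 ± 0.368 to 7.14 ± 2.42 CPM (log2 change 4.81, SE 0.42, adjusted p = 5.53e-09, edgeR), *Tal1* by 4.53 on the log2 scale (SE 0.20, 1.21e-14), *Gata2* by 3.02 (SE 0.31, 1.15e-07) and *Gata3* by 2.74 (SE 0.26, 2.94e-08). The factors encoded by *Gata2*, *Gata3* and *Tal1* select the GABAergic fate in midbrain and spinal cord, and 4 further genes of this list, among them the cerebellar *Ptf1a*, stayed under the filter. *Pax2*, *Pax8* and *Lhx5* were picked by the study from these samples, so their presence in the list is not independent evidence of its direction. *Gata3* is a leading gene of the *Hoxc10* cluster, and *Gata3* and *Tal1* were among the genes most correlated with *Tfap2b*. Their rise is therefore not independent of how the members were chosen. *Gbx2* (-2.14, SE 0.60, 0.0170) and *Prdm13* (-1.30, SE 0.24, 0.000480) fell. Beside these falls, the cluster led by *Gbx2* held 342 control and 26 *Eed-cKO* neurons, the latter all of 1 embryo, and the cluster led by *Nr5a1*, which has *Prdm13* among its leading genes, 242 and 88, and the part of these numbers in the falls was not tested.

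Of 8 excitatory determinants of the same regions, 4 rose, 0 fell and 4 were not called (median 0.59). *Tlx3*, a selector of glutamatergic neurons in the dorsal spinal cord, rose from 0.0675 to 3.17 CPM (log2 change 5.06, SE 0.48, adjusted p = 1.86e-08, edgeR). It passed the filter on low counts in only 7 of the 15 fits with 1 embryo left out, and was called in these 7. *Pou4f1* (1.71, SE 0.45, 0.0107), *Lhx2* (0.75, SE 0.17, 0.00370) and *Neurod1* (0.58, SE 0.13, 0.00353) rose as well. Risers were thus found among both inhibitory and excitatory determinants. Of 8 dorsal midbrain genes, 3 rose (*Meis1* by 2.22, SE 0.20, 8.25e-09, *En2* by 1.92, SE 0.27, 1.47e-05, and *En1* by 1.15, SE 0.31, 0.0137), 0 fell and 5 were not called, with a median of 0.34.

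Of 7 transmitter genes, 0 rose, 2 fell and 5 were not called (median -0.01). *Slc17a6* was at 384 ± 31.9 and 404 ± 61.2 CPM and *Slc32a1* at 113 ± 20.4 and 115 ± 4.79 CPM (adjusted p = 0.615 and 0.859, edgeR), so the summed level of neither transporter that sets the classes was called. *Slc17a8*, the glutamate transporter VGLUT3 (-0.95, SE 0.28, 0.0239), and *Slc6a9*, a glycine transporter (-0.62, SE 0.10, 0.000139), fell. The calls of *Slc17a8*, *Vstm2b*, *Pou4f1* and *Gbx2* were lost under at least 1 alternative.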

How the data were processed

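The authors deposited 1 table of raw UMI counts per gene and cell (16510 genes, 14121 cells), made from 3′ libraries of the ddSEQ platform with the SureCell pipeline and joined over 48 libraries without normalization. The submitters' processing notes name STAR 2.5.2b, SAMtools 1.3 and the mm10 build. The cells had been filtered before deposit, and the lowest held 601 UMIs and 318 genes. The cell annotation deposited with the counts was not used. A barcode occurred in more than 1 library for 203 cells (101 barcodes), and 0 of the pairs had identical counts.

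Clusters came from the Leiden algorithm (leidenalg 0.10.2, scanpy 1.11.5, Python 3.11.15) on the variable genes (counts scaled to 10000 per cell, 2000 variable genes, 30 principal components, 15 neighbours, resolution 1). Clusters were named from marker lists, by at least 3 markers raised 2-fold and found in 10% of cells. Because most cells are neurons, neuronal markers were compared with the clusters named as other types and not, as first laid down, with all other cells. Clusters whose median UMI count was under 1/3 of that of their libraries stayed unnamed (1036 control and 551 *Eed-cKO* cells), as did those led by *Alas2* and *Ttr*. These names are rebuilt here and not the authors'. Scrublet marked the 6% of cells with the highest doublet score in each library, and they were left out only as an alternative.

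UMI counts of neuron-like cells were summed per embryo and fitted in R 4.3.3 by edgeR 4.0.16, with TMM scaling, the quasi-likelihood test and a Benjamini-Hochberg adjusted p of 0.05. Genes under 15 counts in all, under 2 in every embryo or under 1.5 in median log-CPM were not tested. The standard error of a log2 change is its size divided by the root of the F value. The step was tested on simulated data. Sexes were compared by exact permutation with scipy 1.17.1. DESeq2 1.42.0 and limma 3.58.1 (voom with TREAT at 0.18) were alternatives, as were the scaling, the filters, the cells taken as neurons, the UMIs of a positive cell, thinning to 2000 UMIs, sex as a covariate, libraries as samples and each embryo left out in turn. Labels do not say what the leading number of a library name marks.

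The members, the gene lists and the tests were chosen with earlier results of these data known. Named genes were the members, up to 4 called genes of each list with the largest fitted change, all AP-2 paralogs, and the 10 genes most correlated with *Tfap2b*. One gene of a list is not reported here. *Myt1l*, *Gbx2*, *Prdm13*, *Slc17a6* and *Slc32a1*, the single Hox genes, the control *Tfap2b* neurons' genes and the pairs of members were added after their values were seen.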

Additional observations from a re-analysis of the deposited data

Results flagged for a closer look

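Of 21 groups of embryos checked for a sample far from the others, 2 held one, where chance gives about 1 in 20. In control, embryo 1 had *Lgals7* at 17.52 CPM in its neurons, and its gap to the next embryo was 0.718 of the range of the 6 embryos. The other 5 control embryos lay between 6.64 and 9.71 CPM, so the overlap of the genotypes for *Lgals7* rests on this embryo. In *Eed-cKO*, 23.68% of the neurons of embryo 7 were positive for *Tfap2b*, with a gap of 0.559 of the range of the 9 embryos. Over the 26 *Eed-cKO* libraries this share ran from 6.16 to 26% (median 9.90%). Without embryo 7 the mean share was 10.2% in place of 11.7%.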

How the results depend on the processing

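Each embryo held 142 to 1076 neurons, so shares under about 1% rest on few cells. The count of genes called between genotypes in neurons was 1833, but 3474 in All-Hypo cells (all but the non-neural cells), 564 with limma-voom and TREAT, and 3845 with each library as a sample. It ran from 1377 to 2295 with 1 embryo left out. Neurons with at least 3 members were 0.369% of control and 12.4% of *Eed-cKO* neurons. These shares were 0.0460% and 5.06% after thinning, 0.0778% and 4.39% when a positive neuron needed 2 UMIs, and 0% and 1.77% over the 4 members low in control, a setting chosen after seeing the data. The Glut/GABA difference of 27.0 points was 11.6 after thinning, and with 1 embryo left out it ran from 25 to 28.7. The *Pou4f1* call was lost with DESeq2 (log2 change 1.69), and its leave-one-out values ran from 1.43 to 2.36. The *Slc17a8* call was lost without control embryo 1 (-0.80) or 2 (-0.80) or *Eed-cKO* embryo 4 (-0.88), and the *Vstm2b* call without control embryo 2 (-0.30) or *Eed-cKO* embryo 1 (-0.33), 2 (-0.35), 4 (-0.31) or 5 (-0.33). The *Gbx2* call was lost with DESeq2 (-1.96) and without control embryo 2 (-1.78). The causes were not tested. *Tlx3* was under the filter on low counts without any one of *Eed-cKO* embryos 1 to 7 or 9. No called value reversed. Of the single genes 432 values kept their side of the threshold, and of the other results 146 kept it or moved by less than the spread of the embryos or 1.5 times. The sex differences (females minus males, CPM) were called under none of these settings, and 11 of their 77 recomputed values had the other sign. They ran from -2.90 to 8.34 for *Lamp5*, -4.67 to 3.93 for *Lgals7*, -10.5 to 3.47 for *St18*, -63.3 to 5.21 for *Vstm2l* and -3.83 to 0.0474 for *Dmbx1*. No paired analysis was possible because no embryo or name number held both genotypes, and the replicate numbers are only names.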

Other observations

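Read from each member in turn, the genes most correlated across *Eed-cKO* neurons differed. These genes were chosen after their values were seen, and the correlations are means over the 8 or 9 embryos with at least 10 positive neurons. *Tfap2a* and *Dmbx1* were each other's first gene (r = 0.272, and 0.237 within the *Hoxc10* cluster), and *Zic1*, a dorsal patterning factor, was among the first 6 genes of both. *Dmbx1* also had *Ebf1* (0.175) and *Gfra1*, a co-receptor of glial cell line-derived neurotrophic factor (0.156). *Lamp5* went first with *Gata3* (0.378) and *Meis2* (0.327), ahead of *Tfap2b*. *Vstm2l* had *Meis2* first (0.334), then *Tal1* (0.317), and held *Gad1*, which encodes a GABA-synthesizing enzyme, in sixth place (0.290). *St18* went with *Nfib* (0.411) and *Nfix* (0.330), factors of the NFI family, and *Lgals7* with *Nfib* (0.169) and *Nfia* (0.148). Within the *Hoxc10* cluster the values of *St18* with *Nfib* (0.454) and *Nfix* (0.351) were not lower.

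Neurons positive for pairs of members differed in class, given here as shares of cells pooled over embryos. Of the 231 *Eed-cKO* neurons with *Tfap2b* and *Lamp5*, 55.8% were Glut/GABA and 99.1% held a Hox UMI. Of the 39 with *Tfap2b* and *Dmbx1*, 76.9% were Glut/GABA, and their median depth was 6867 UMIs, above the 5264 UMIs of the former. Of the 154 with *Tfap2b* and *St18*, 37.0% were Glut/GABA and 22.7% GABA, at a median of 4380 UMIs. Among the 1439 neurons without any member, 6.25% were Glut/GABA at a median of 4082 UMIs. Depth differed between these sets, and its part in the shares was not tested.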
